A study of Mus musculus with 18 samples.

Results

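Transcript levels of 10 genes of antioxidant defence, most of them targets of the transcription factor Nrf2, were read in the spleen of ICR mice. The genes were Gpx1, Gpx3, Nqo1, Gclc, Gclm, Srxn1, Txnrd1, Prdx1, Cat and Sod2. They were taken by symbol from a table of 19326 entries, in which each has a line, and all 10 passed the filter on low values that left 12969 genes for testing.

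Nrf2, encoded by Nfe2l2, is held low by Keap1, which directs its degradation in unstressed cells. Oxidants and electrophiles release it, and together with small Maf proteins it binds antioxidant response elements near genes for glutathione synthesis, thioredoxin recycling and quinone reduction. In the spleen these enzymes work in red cell precursors, in macrophages that take up old red cells, and in lymphocytes. Sod2, Cat, Gpx1 and Gpx3 remove superoxide or peroxides and are set by other regulators as well.

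All mice were aged 10 weeks, and each of the 6 groups holds 3 libraries. The control group is labelled with no treatment. AOS, an abbreviation that the labels do not spell out, was given at 10 mg/kg to a second group, named for it. The HS group had a high fat diet and STZ (streptozotocin, a toxin of insulin-producing cells). The remaining 3 groups shared that diet and STZ: HS_AOS also had AOS at 10 mg/kg, HS_AOSFMT a faecal microbiota transplant (FMT) labelled with the AOS dose, and HS_conFMT a transplant labelled control. The question named in the series title is rescue of the spleen by the AOS transplant. Neither sex, the length of treatment nor separate animals for the 3 libraries of a group are stated, so the spread behind every p-value is that among libraries and may be technical.

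Values are in FPKM, which divides a gene's fragments by its length and by the fragments mapped in the library. The unit was inferred from the values. Summed FPKM ran from 666441 to 831448 per library. Absolute depth is unknown, so no counting error stands beside a value, and low values put relative depth between 0.993 and 1.06. All 7 B cell and 8 T cell markers looked up were detected in every group. Between 12.9% and 35.5% of the summed FPKM came from haemoglobin genes. Libraries HS 1 and HS_AOS 1 stood apart by pancreatic acinar transcripts (2.81% and 3.18%, at most 0.456% in the other 16 libraries), and control 1 by neutrophil transcripts (1.87%, at most 0.564% elsewhere).

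None of the 10 genes passed the test in any comparison. Gpx1, Nqo1, Gclc, Gclm and Srxn1 varied together across the 18 libraries, also as deviations from the group means, and with the share of erythroid transcripts. These genes also ran opposite to the share of B cell transcripts. The changes nearest the threshold were lower Cat and Srxn1 in HS_AOSFMT. The widest gap between means against HS was in Gpx3, lower in HS_AOS. Around the members, the small Maf gene Maff rose in HS_AOSFMT against HS and control under every alternative run, and against HS_conFMT with a call that 7 alternatives ended.

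Levels in FPKM, which are per transcript length, differed widely between the members. Gpx1 (median 1234 FPKM over 18 libraries, range 835 to 1735) was by far the highest and stood 80th of all entries by mean level. Prdx1 followed (median 228, range 193 to 264), and neither gene's range met that of another member. Gpx3 (54.4 to 150.4), Gclm (33.5 to 101) and Cat (48.4 to 71.3) overlapped one another. Gclc (18.3 to 34.0), Txnrd1 (17.0 to 25.1) and Sod2 (15.1 to 20.4) formed the next overlapping set. Nqo1 (3.26 to 10.8) and Srxn1 (4.32 to 12.1) were lowest and did not differ beyond their spread. The highest library exceeded the lowest 3.33-fold for Nqo1 and 3.02-fold for Gclm, but 1.37-fold for Prdx1 and 1.35-fold for Sod2.

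**Figure D1:**
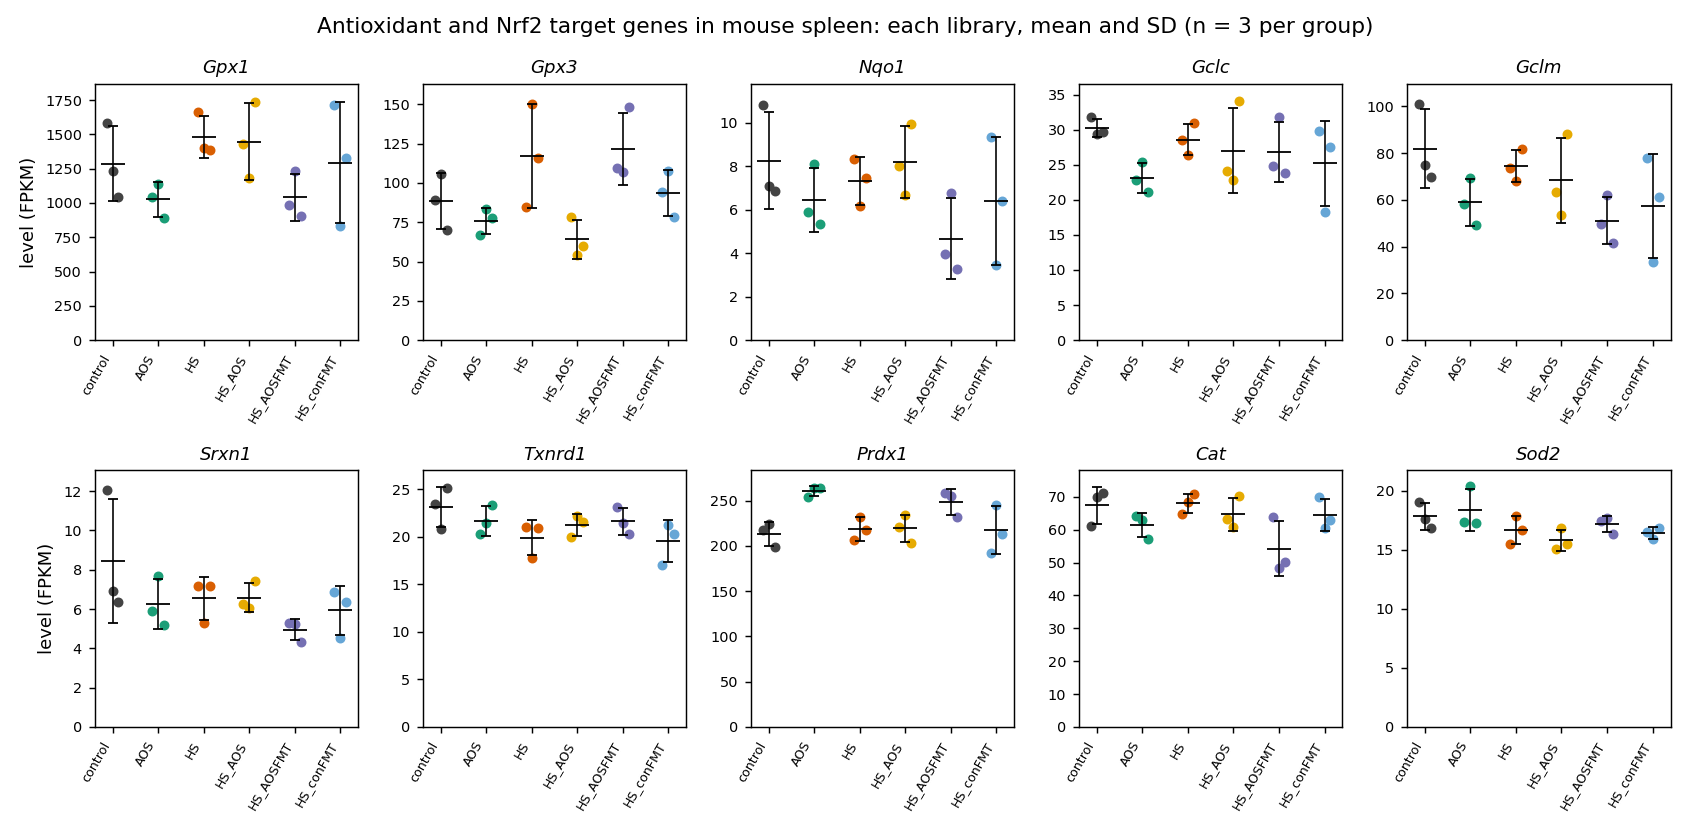
Level in FPKM (vertical axes, from 0) of the 10 genes in each of the 6 groups; points are the 3 libraries, horizontal bars the mean, whiskers the SD. Groups overlap in most panels; Gpx3 in HS_AOS (54.4 to 78.3) lies below all 3 HS libraries (84.7 to 150.4), and HS_conFMT spans a wide range for Gpx1 and Gclm.

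An antioxidant response element holds the core TGACNNNGC (GCNNNGTCA on the other strand), where N is any base. RefSeq promoters (GRCm38.p6, 250 bases before to 50 after each start) were matched for 9 of the 10 members, all but Gclc, and searched on both strands. A core match was found in 4 of the 9, Gclm, Prdx1, Srxn1 and Txnrd1, and in 14% of 27025 genes and 12.4% of 32851 promoters. Binding of Nrf2 at these matches was not tested. The windows around them are shown because they hold the core of the element that Nrf2 is known to bind. They are given 5′ to 3′ on the plus strand with the match in capitals.
Gclm, chr3:122245398-122245456: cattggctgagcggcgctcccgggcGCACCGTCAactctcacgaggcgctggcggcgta
Prdx1, chr4:116685441-116685499: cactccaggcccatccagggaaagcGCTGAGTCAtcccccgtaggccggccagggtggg
Txnrd1, chr10:82859089-82859147: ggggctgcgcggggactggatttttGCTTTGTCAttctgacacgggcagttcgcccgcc
Srxn1, chr2:152105542-152105570: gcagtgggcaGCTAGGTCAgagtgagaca
The matches of Gclm and Prdx1 begin 134 and 133 bases before the RefSeq start, upstream of the gene. That of Txnrd1 begins 92 bases before 1 of its 3 RefSeq starts, within an intron of the GENCODE M21 gene. That of Srxn1 begins at base 29, with the RefSeq start counted as base 1, and overlaps an exon. A match is a description of letters, and none of the 5 members without one (Gpx1, Gpx3, Nqo1, Cat and Sod2) was searched outside its window. Of the 4 genes with a match, Gclm and Srxn1 belong to the set that varied together across libraries, and Prdx1 and Txnrd1 do not.

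Glutathione synthesis starts with glutamate-cysteine ligase, made of a catalytic subunit (Gclc; chromosome 9, 77754535 to 77794485, mm10) and a modifier subunit that raises its affinity for substrate (Gclm; chromosome 3, 122245557 to 122270732). Gclm stood at 101, 74.9 and 69.8 FPKM in control 1, 2 and 3 and at 73.7, 68.1 and 81.8 in HS. It was 63.2, 53.3 and 88.3 in HS_AOS, 49.6, 61.9 and 41.7 in HS_AOSFMT, 77.7, 33.5 and 61.0 in HS_conFMT, and 58.1, 69.5 and 49.2 in AOS. Every HS_AOSFMT library lay below every HS and control library, while HS_AOS and HS_conFMT overlapped both sides. The log2 change on log2(FPKM + 1) was -0.55 (SE 0.26, limma adjusted p = 0.185) in HS_AOSFMT against HS and -0.67 (SE 0.26, limma adjusted p = 0.0972) against control. Fitted to the HS_AOSFMT and HS libraries alone, the first change had an adjusted p of 0.0482, against 0.0482 to 0.433 over its 14 alternatives.

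Gclc varied less between groups. It was 31.8, 29.4 and 29.6 FPKM in control and 22.8, 25.4 and 21.2 in AOS, which did not overlap (log2 change -0.38, SE 0.17, limma adjusted p = 0.421). In the groups with diet and STZ it ran from 18.3 to 34.0, with means of 28.6 ± 2.26 in HS, 27.0 ± 6.10 in HS_AOS, 26.8 ± 4.31 in HS_AOSFMT and 25.2 ± 6.11 in HS_conFMT (SD, n = 3 here and throughout). The ratio of Gclm to Gclc was 1.90 ± 0.133 in HS_AOSFMT, where its libraries lay at 2.00, 1.95 and 1.75. In HS the ratio was 2.61 ± 0.0382 and in control 2.70 ± 0.432, with no overlap with HS_AOSFMT. An exact two-sided permutation test gave p = 0.1 for HS_AOSFMT against HS, against control and against HS_AOS, the smallest p that 3 against 3 allows (Benjamini-Hochberg adjusted over 5 comparisons, 0.167). Against HS_conFMT (2.22 ± 0.385) the exact p was 0.3.

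Peroxide is reduced by glutathione peroxidases and catalase. Gpx1 (chromosome 9, 108338903 to 108340343), the selenium-dependent peroxidase of the cytosol, was 1584, 1236 and 1041 FPKM in control and 1660, 1402 and 1386 in HS. It was 1426, 1179 and 1735 in HS_AOS, 988, 1233 and 906 in HS_AOSFMT, 1717, 835 and 1324 in HS_conFMT, and 1045, 1140.2 and 891 in AOS. HS_AOSFMT lay below HS in all libraries but overlapped control, and HS_conFMT held both the lowest level of all and one near the highest. The change in HS_AOSFMT against HS was -0.52 on the log2 scale (SE 0.23, limma adjusted p = 0.153). It passed the test when the fit held these 2 groups alone (adjusted p = 0.0417, range 0.0417 to 0.364 over 14 alternatives).

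Gpx3 (chromosome 11, 54902453 to 54910377) encodes the secreted peroxidase of plasma. Its values were 84.7, 150.4 and 116 FPKM in HS and 78.3, 54.4 and 59.6 in HS_AOS. They were 89.2, 106 and 70.0 in control, 67.1, 83.3 and 77.6 in AOS, 109, 107 and 148 in HS_AOSFMT, and 94.4, 108 and 78.4 in HS_conFMT. HS_AOS lay below HS and HS_AOSFMT without overlap and met the lower end of control and AOS. The log2 change in HS_AOS against HS was -0.84 (SE 0.21, 95% interval -1.28 to -0.39), which ranked 25th of 12969 genes by p (unadjusted p = 0.00117) and did not pass limma's adjustment (adjusted p = 0.562). Without HS 1, HS_AOS 1 and control 1 the change was -1.20, and over all 14 alternatives it ran from -1.20 to -0.64 and the adjusted p from 0.104 (without HS 1) to 1.00.

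Gpx3 was also the member with the widest differences among all groups. Differences between groups held 65.5% of its sum of squares, more than in 88.0% of the genes tested, where the median was 42.1%. The limma F test over 6 groups gave an adjusted p of 0.0661 (range 0.0311 to 0.168 over 25 alternatives). It fell to 0.0311 without HS 1, to 0.0397 without control 3 and to 0.0331 without HS 1, HS_AOS 1 and control 1 together. Whether AOS acted differently under diet and STZ than without them was tested by the interaction, which was -0.64 for Gpx3 (SE 0.30, limma adjusted p = 0.835). Kidney tubule markers were looked up because that tissue makes much Gpx3. As a share of all FPKM these markers ran from 0.00171% to 0.00322% among control libraries. Every other group stayed at or below 0.000254%, a value reached in HS. The markers Slc22a6 and Umod were at 0 in every group but control. Over the 18 libraries Gpx3 had r = -0.05 with the kidney tubule share and rho = 0.34. The permutation p, adjusted over 110 relations of members to marker lists, was 0.869 for r and 0.368 for rho. The part of this share in the comparisons of Gpx3 with control was not tested. Adipocyte markers made up 0.00148% to 0.0425%.

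Catalase (Cat; chromosome 2, 103453849 to 103485160), which splits hydrogen peroxide in peroxisomes, stood at 64.9, 68.4 and 70.8 FPKM in HS and 61.1, 69.9 and 71.3 in control. It was 63.8, 48.4 and 50.3 in HS_AOSFMT, below HS in every library but within reach of control 1. HS_AOS (63.2, 60.7 and 70.2), HS_conFMT (70.0, 60.5 and 62.9) and AOS (64.2, 63.0 and 57.2) overlapped HS_AOSFMT through HS_AOSFMT 1, with means of 64.7, 64.5 and 61.5 against 54.2 in HS_AOSFMT. The log2 change was -0.33 in HS_AOSFMT against HS (SE 0.10, limma adjusted p = 0.0515) and -0.32 against control (SE 0.10, limma adjusted p = 0.0526). Both passed without HS_AOSFMT 1 (adjusted p = 0.0287 and 0.0206) and with median-of-ratios scaling (0.0300 and 0.0235). Over the 14 alternatives of each comparison, the adjusted p ran from 0.0287 to 0.269 and from 0.0206 to 0.284.

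In the thioredoxin arm, peroxiredoxins reduce peroxide, sulfiredoxin restores over-oxidized peroxiredoxin and thioredoxin reductase passes on electrons from NADPH. Prdx1 (chromosome 4, 116685544 to 116700822) was 254, 264 and 263 FPKM in AOS and 217, 224 and 198 in control. AOS lay wholly above control (log2 change 0.29, SE 0.090, limma adjusted p = 0.270). HS_AOSFMT, at 259, 255 and 232, also lay above control (log2 change 0.22, SE 0.090, limma adjusted p = 0.110) and overlapped HS (206, 232 and 217) by its lowest library alone. HS_AOS (220.5, 234 and 204) and HS_conFMT (193, 245 and 213) overlapped HS and control.

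Srxn1, sulfiredoxin (chromosome 2, 152105516 to 152111376), was 12.1, 6.92 and 6.37 FPKM in control and 5.31, 5.22 and 4.32 in HS_AOSFMT. These groups did not overlap (log2 change -0.62, SE 0.20, limma adjusted p = 0.0532), and control 1, the library with most neutrophil transcripts, stood apart from the other two. Over the 18 libraries Srxn1 had r = 0.71 with the neutrophil share (rho 0.28, permutation p adjusted over 110 relations 0.0867 and 0.484). Without control 1 and control 2, the libraries farthest from the median share, r was -0.06. The part of neutrophil transcripts in the change of Srxn1 was not tested. Without control 3 the change passed the test (adjusted p = 0.0185, range 0.0185 to 0.266 over 14 alternatives), and without control 1 the log2 change was -0.36 (adjusted p = 0.233). Its values were 7.18, 5.27 and 7.18 in HS, 6.26, 6.06 and 7.44 in HS_AOS, 6.89, 4.54 and 6.35 in HS_conFMT, and 5.89, 7.67 and 5.21 in AOS. Txnrd1, the cytosolic thioredoxin reductase (chromosome 10, 82833951 to 82897712), kept to 17.0 to 25.1 FPKM, with means from 19.5 ± 2.24 in HS_conFMT to 23.1 ± 2.15 in control. Its change in HS against control was -0.21 (SE 0.097, limma adjusted p = 0.778).

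Nqo1 (chromosome 8, 107388225 to 107403206), a quinone reductase often used to read Nrf2 activity, was 10.8, 7.08 and 6.86 FPKM in control. It was 3.97, 6.77 and 3.26 in HS_AOSFMT, just below the lowest control library (log2 change -0.73, SE 0.28, limma adjusted p = 0.0956). HS (8.34, 6.18 and 7.45) overlapped HS_AOSFMT through HS_AOSFMT 2 (log2 change -0.59, SE 0.28, limma adjusted p = 0.186). HS_conFMT covered 3.44 to 9.36, HS_AOS 6.66 to 9.95 and AOS 5.36 to 8.12. Sod2, the manganese superoxide dismutase of mitochondria (chromosome 17, 13006846 to 13040063), was the steadiest member, with means from 15.8 ± 0.898 in HS_AOS to 18.3 ± 1.79 in AOS. Its log2 changes against HS were -0.07 in HS_AOS, -0.02 in HS_conFMT and 0.04 in HS_AOSFMT (SE 0.078 each).

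The effect of diet and STZ alone was read from HS against control. limma called 0 members, against 0.0154% of all genes, and 1 member, Txnrd1, had an unadjusted p under 0.05 (6.4% of all genes). Positive changes were seen in 4 members and negative ones in 6, with a median of -0.09 beside -0.01 over all genes. No member's groups lay apart, as 3.89% of all genes did on the higher side and 4.65% on the lower.

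AOS under diet and STZ was set against HS, with 0 members called by limma as for all genes (0%) and 1 member, Gpx3, at an unadjusted p under 0.05 (5.2%). Gpx3 was also the member whose groups did not overlap on the lower side, as was so for 2.74% of all genes, and no member lay apart on the higher side (8.22%). In AOS against control 0 members were called by limma (0.00771% of all genes) and 2, Gclc and Prdx1, had an unadjusted p under 0.05 (11.3%). There Gclc and Gclm were lower without overlap (4.79% of all genes) and Prdx1 was higher without overlap (11.6%).

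The AOS transplant was the treatment with the most called genes against HS, 1048 higher and 149 lower, or 9.23% of all genes. Rescaled by median of ratios, which moved the median change of all genes from 0.10 to -0.00347, that split was 499 and 291. No member was called by limma (0), and 2 (Gpx1 and Cat) had an unadjusted p under 0.05 (28% of all genes). The members' median change was -0.22, and Gpx1, Gclm and Cat were lower without overlap (3 of 10, against 7.64% of all genes), while 0 were higher without overlap (30.8%). Against control 12% of all genes were called and again 0 members, by limma. Unadjusted p fell under 0.05 for 6 members (31.9% of all genes), Gpx3 and Prdx1 on the higher side and Nqo1, Gclm, Srxn1 and Cat on the lower. Groups did not overlap for 3 members on the lower side (8.3% of all genes) and 2 on the higher (23.3%).

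Without HS 1, HS_AOS 1 and control 1, the change in HS_AOSFMT against HS was -0.37 for Cat (limma adjusted p = 0.0919), -0.56 for Gclm (0.324), -0.43 for Gpx1 (0.348) and -0.51 for Nqo1 (0.391). Against control it was -0.39 for Cat (limma adjusted p = 0.0827), -0.36 for Srxn1 (0.266), -0.54 for Nqo1 (0.373) and -0.51 for Gclm (0.375). Cat was at least as far from HS and control without these libraries, and Srxn1, Nqo1 and Gclm were nearer to control.

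The control transplant against HS gave negative changes in all 10 members (median -0.17, against 0.03 over all genes), none of them without overlap (2.99% of all genes lower and 7.78% higher). That shared sign did not hold: scaled to 1 fixed sum per library, Txnrd1, Prdx1 and Sod2 were at 0.0019, 0.016 and 0.0079. Without HS_conFMT 2, the changes of Gpx1, Nqo1, Gclc, Srxn1 and Sod2 were 0.03, 0.08, 0.0050, 0.02 and 0.00055. limma called 0 of them (0.00771% of all genes), and 0 had an unadjusted p under 0.05 (6.32%). Direct comparison of the 2 transplants gave 0 calls by limma among members against 5.85% of all genes, with 2 (Prdx1 and Cat) at an unadjusted p under 0.05 (22.8%). The changes of Cat and Prdx1 there were -0.26 and 0.20 (limma adjusted p = 0.148 and 0.200), and 0 members lay apart (21.5% of all genes higher, 7.27% lower). Against control, HS_AOS and HS_conFMT also gave 0 member calls by limma (0.0925% and 0.0386% of all genes), with 1 member (Gpx3) and 2 (Gclm and Txnrd1) at an unadjusted p under 0.05 (7.83% and 11.7%). No member lay apart in HS_AOS against control (5.69% of all genes higher, 3.02% lower) or in HS_conFMT against control (4.88% and 4.89%). The interaction gave 0 (0.00771% of all genes), with Gpx3 and Prdx1 at an unadjusted p under 0.05 (5.97%), and the F test over 6 groups 0 (5.08%). Comparisons against HS share its 3 libraries, and those against control share theirs.

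**Figure D2:**
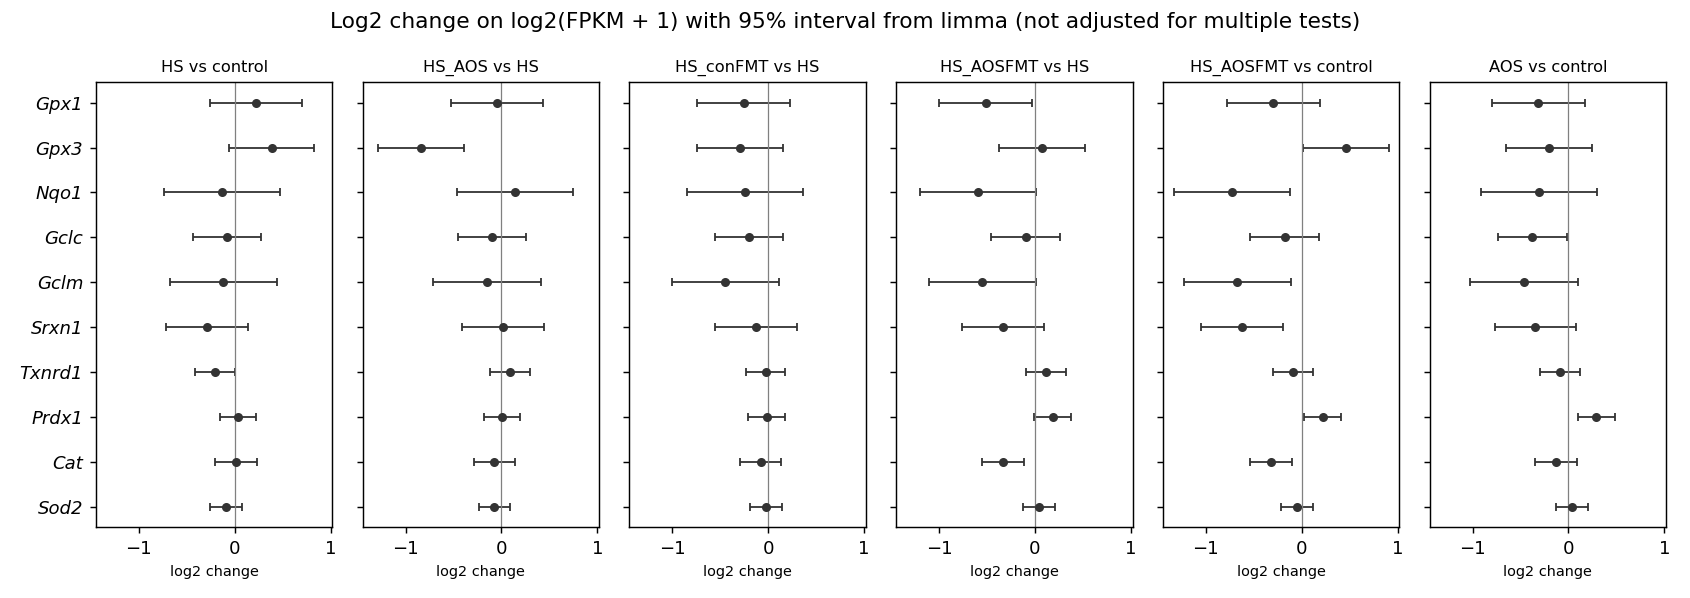
Log2 change on log2(FPKM + 1) (horizontal axes) of the 10 genes in 6 comparisons; points are limma estimates and bars their 95% intervals, not adjusted for the number of genes. The interval of Gpx3 in HS_AOS against HS (-1.28 to -0.39) and that of Cat in HS_AOSFMT against HS (-0.55 to -0.12) leave out 0, though neither change passed the adjusted test.

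Intervals show what these 18 libraries could resolve. For Gclm in HS_AOSFMT against HS the 95% interval ran from -1.11 to 0.01, and for Gpx1 in HS against control it reached from -0.26 to 0.70. A change of a log2 unit in either direction lay outside the interval of Sod2, Txnrd1, Prdx1 and Cat in all of these comparisons.

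Members varied in shared and separate ways across the libraries. Pearson's r of log2(FPKM + 1) over the 18 libraries was 0.61 to 0.92 in all 10 pairs among Gpx1, Nqo1, Gclc, Gclm and Srxn1, and Spearman's rho was 0.66 to 0.91. In these pairs the highest permutation p, adjusted over the 45 pairs of members, was 0.0257 for r and 0.0121 for rho. Without the 2 libraries farthest from the median r was 0.51 to 0.86, and for deviations from the group means it was 0.66 to 0.95. Nqo1 and Gclm were the closest pair (r = 0.92, rho = 0.91, permutation p adjusted 9e-05 for r and 0.000225 for rho). Gpx1 and Prdx1 ran opposite to each other (r = -0.68, rho = -0.67, permutation p adjusted 0.0119 and 0.0121), with r = -0.64 without the 2 farthest libraries.

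**Figure D3:**
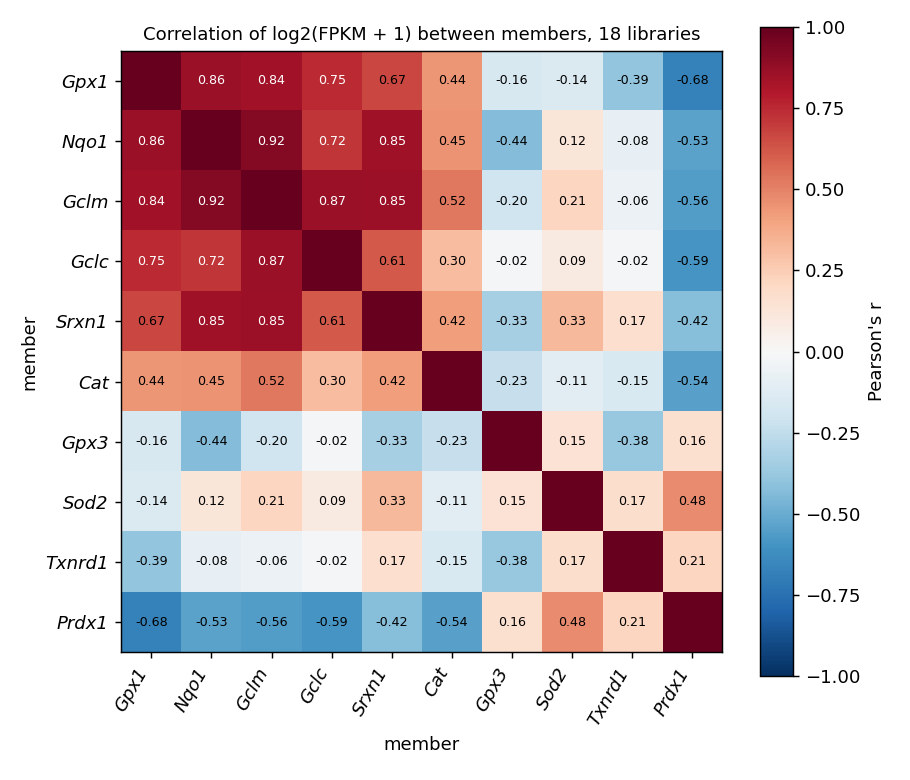
Pearson's r of log2(FPKM + 1) between each pair of the 10 genes over the 18 libraries; the colour scale gives r. The block of Gpx1, Nqo1, Gclc, Gclm and Srxn1 holds r from 0.61 to 0.92, and Prdx1 is negative against Gpx1 (-0.68) and Gclc (-0.59).

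Each member was also set beside the summed share of 14 erythroid markers (15 listed), among them genes of haemoglobin, haem synthesis and the red cell membrane. In every library it lay below the share of all haemoglobin genes, for example 21.4% against 34.4% in control 1, so it leaves some haemoglobin transcripts out. The erythroid share was 17.5% to 21.4% of the summed FPKM in control, 11.9% to 15.8% in AOS, 20.7% to 23.4% in HS and 14.9% to 26.4% in HS_AOS. It was 8.60% to 14.0% in HS_AOSFMT and 9.74% to 24.3% in HS_conFMT, so that HS_AOSFMT lay below HS and control without overlap. None of the 14 markers was at 0 in any group. In such bulk samples fewer cells of a type and less RNA per cell cannot be told apart.

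Over 18 libraries r with the erythroid share was 0.89 for Gpx1 (rho 0.87), 0.87 for Gclm (rho 0.91) and 0.84 for Nqo1 (rho 0.81). For these 3 genes the permutation p adjusted over 110 relations of members to marker lists was 0.00022, 0.00022 and 0.000367 for r and 0.00055, 0.00044 and 0.00134 for rho. For Gclc r was 0.73 (rho 0.71, permutation p adjusted 0.00687 and 0.0123), for Cat 0.67 (rho 0.74, 0.0140 and 0.00568) and for Srxn1 0.64 (rho 0.73, 0.0181 and 0.00719). Prdx1 ran the other way (r = -0.69, rho = -0.69, permutation p adjusted 0.0155 and 0.0166). Gpx3 (r = -0.14, rho = -0.09), Txnrd1 (-0.35, -0.19) and Sod2 (-0.07, -0.09) showed no relation past the threshold, with permutation p adjusted of 0.735, 0.331 and 0.838 for r and 0.825, 0.658 and 0.825 for rho.

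Leaving out HS_AOS 3 and HS_AOSFMT 3, the libraries farthest from the median share, r was 0.86 for Gpx1, 0.84 for Gclm, 0.78 for Nqo1, 0.68 for Gclc, 0.57 for Srxn1, 0.56 for Cat and -0.71 for Prdx1. Deviations from the group means, for which no p was computed, gave 0.87, 0.90, 0.82, 0.89, 0.57, 0.36 and -0.55 for the same genes. HS_conFMT shows this inside a group: its replicate 2 had the lowest share of its group, 9.74%, and the lowest Gpx1, Gclc and Gclm of all 18 libraries. Lymphocyte shares moved the opposite way, with r = -0.91 between Nqo1 and the T cell share (rho -0.88, permutation p adjusted 0.00022 and 0.00044) and r = -0.83 between Gpx1 and the B cell share (rho -0.86, 0.000367 and 0.00044). With the T and B cell shares r was -0.83 and -0.78 for Srxn1, -0.83 and -0.85 for Gclm, and -0.51 and -0.64 for Gclc. For Cat it was -0.58 and -0.30 and for Prdx1 0.54 and 0.38. The T cell relation of Gclc and both of Cat and Prdx1 had an adjusted permutation p over 0.05. Gpx1 also ran against the fibroblast and smooth muscle share (r = -0.66, permutation p adjusted 0.0177) and the adipocyte share (-0.62, 0.0359). All shares are parts of the same sum, so they are not independent. The T cell share was 0.0607% to 0.0773% in HS_AOSFMT and 0.0376% to 0.0456% in HS. The part of cell makeup in the group differences of the members was not tested.

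**Figure D4:**
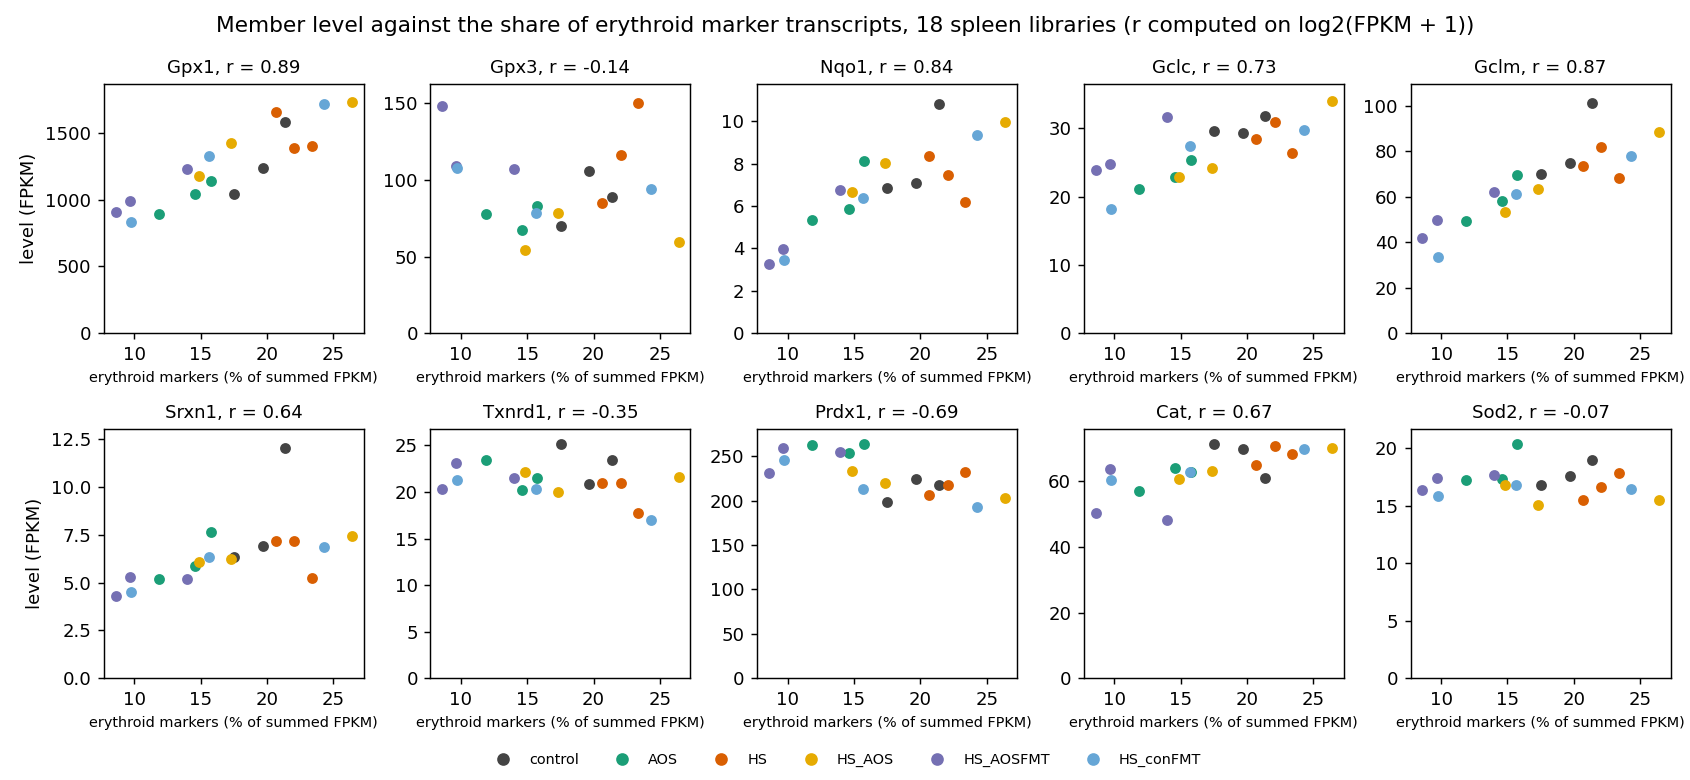
Level in FPKM (vertical axes) of each member against the erythroid share of the summed FPKM in percent (horizontal axes); each point is 1 of the 18 libraries, coloured by group. Gpx1 and Gclm climb with the share (r = 0.89 and 0.87 on the log2 scale), Prdx1 falls (r = -0.69) and Gpx3 shows no trend (r = -0.14).

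Of all tested genes outside the members, those most like each member by Pearson's r over the 18 libraries were found as a description. Gpx1 was closest to Hbq1b (r = 0.96), a globin gene, and Josd2 (0.95). Gclm was closest to Cpox (0.98), an enzyme of haem synthesis. Nqo1 was closest to Ces2g and Slc43a3 (0.97 each), Gclc to Fam126a and Endod1 (0.95 each) and Srxn1 to Cmas and Arhgap19 (0.92 each). The closest genes were Tm2d2 (0.92) and Nip7 (0.90) for Prdx1, Slc10a6 (0.85) and Map3k7cl (0.78) for Gpx3, and Slain2 (0.83) and Zfp433 (0.79) for Txnrd1. For Cat they were Tcp11l2 (0.82) and Dnajc6 (0.81), and for Sod2 Cetn3 (0.81) and Clpp (0.80).

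The surrounding pathway was read from 80 further genes in 8 lists, of which 79 were tested. HS_AOSFMT against HS gave 5 higher and 0 lower by limma (6.33%, against 9.23% of all genes). Against HS_conFMT 2 were higher and 2 lower (5.06%, against 5.85%), and against control 4 were higher and 3 lower (8.86%, against 12%). By direction, all genes were called higher and lower in 8.08% and 1.15% against HS, 4.81% and 1.04% against HS_conFMT, and 9.68% and 2.34% against control. In the other comparisons 0 were called by limma, with a smallest adjusted p of 0.188.

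Among regulators of Nrf2, 1 of 8 was called higher in HS_AOSFMT against HS, HS_conFMT and control, beside 8.08%, 4.81% and 9.68% of all genes. Maff, a small Maf protein that pairs with Nrf2 or with its competitor Bach1, stood at 3.75, 5.10 and 4.93 FPKM in HS_AOSFMT. It was 1.74, 2.35 and 1.93 in HS, 1.97, 3.51 and 2.73 in HS_conFMT and 1.17, 1.44 and 1.71 in control, so that every HS_AOSFMT library lay above all libraries of those groups. The log2 change was 0.89 against HS (SE 0.15, limma adjusted p = 0.00474), 1.19 against control (adjusted p = 0.000447) and 0.59 against HS_conFMT (adjusted p = 0.0310). The first 2 calls held without each of their 6 libraries in turn (highest adjusted p 0.0269 and 0.00528). The third was lost without HS_AOSFMT 2, HS_AOSFMT 3, HS_conFMT 1 or HS_conFMT 3 (up to 0.156), and with libraries scaled without haemoglobin genes (0.0517), scaled to 1 fixed sum (0.0649) or fitted as the compared groups alone (0.117). Nfe2l2 itself was 55.0 ± 2.76 FPKM in HS_AOSFMT and 49.8 ± 2.27 in HS (log2 change 0.14, limma adjusted p = 0.130), and Keap1 was 19.0 ± 0.727 and 20.1 ± 1.86 (-0.08, adjusted p = 0.590).

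In the list of selenoproteins and selenium handling, limma called 3 of 13 higher in HS_AOSFMT against HS and 0 lower (8.08% and 1.15% of all genes). Changes were positive in 10 and negative in 3 (list median 0.19, against 0.10 over all genes). Selenot, Selenok and Selenos, all of the endoplasmic reticulum, changed by 0.28, 0.37 and 0.36 (limma adjusted p = 0.0201, 0.0289 and 0.0317). Selenok, for example, was 102, 97.0 and 103 FPKM in HS_AOSFMT and 77.5, 81.1 and 73.8 in HS, without overlap. All 3 calls were lost when libraries were rescaled by median of ratios or without haemoglobin genes. They were also lost without single libraries: Selenot without HS 1, HS_AOSFMT 1 or HS_AOSFMT 2 (up to 0.0902), Selenok without HS 1, HS 3 or any HS_AOSFMT library (up to 0.0985), and Selenos without any of the 6 (up to 0.121). Against HS_conFMT, Selenot rose by 0.28 (adjusted p = 0.0223) and Selenom fell by 0.44 (limma adjusted p = 0.0475), calls lost without HS_AOSFMT 1 or 2 or HS_conFMT 1, for Selenot also HS_conFMT 3 and for Selenom also HS_AOSFMT 3 or HS_conFMT 2 (up to 0.108 and 0.178). Against control Selenos and Selenok rose by 0.41 and 0.39 (limma adjusted p = 0.0164 and 0.0215), and these calls were lost without control 1 or HS_AOSFMT 3, and for Selenok also without HS_AOSFMT 1 (up to 0.0765 and 0.0834). In AOS against control Selenos and Selenok changed by 0.41 and 0.28, uncalled (limma adjusted p = 0.188 and 0.333). Their changes against control were 0.04 and 0.01 in HS, -0.12 and -0.15 in HS_AOS, and 0.09 and 0.05 in HS_conFMT.

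Of all genes, 9.23%, 5.85% and 12% were called in HS_AOSFMT against HS, HS_conFMT and control. Of 19 tested genes that Nrf2 is also known to drive, 1 was called in each of these 3 comparisons, a different gene each time. Changes were positive in 10 and negative in 9 against HS, 4 and 15 against HS_conFMT, and 3 and 16 against control, with medians of 0.03, -0.09 and -0.16 beside 0.10, 0.06 and 0.09 over all genes. Hmox1, which breaks down haem, was 206, 159 and 148 FPKM in HS_AOSFMT and 287, 350 and 244 in HS_conFMT (log2 change -0.77, limma adjusted p = 0.0460). That call was lost without any 1 of the 6 libraries (up to 0.149). Ugdh, which makes UDP-glucuronate, rose by 0.36 against HS (adjusted p = 0.0368), a call lost without HS 1, HS 3 or any HS_AOSFMT library (up to 0.141). Gstm1, a glutathione transferase, fell by 0.52 against control (limma adjusted p = 0.0459), a call lost without control 1, control 2, HS_AOSFMT 2 or HS_AOSFMT 3 (up to 0.159).

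NADPH supply held 2 called genes of 6, both lower in HS_AOSFMT than in control, where 2.34% of all genes were called lower. Tkt and G6pdx, enzymes of the pentose phosphate pathway, fell by 0.44 and 0.53 (limma adjusted p = 0.0280 and 0.0427). The fall of G6pdx was not particular to HS_AOSFMT. Against control it changed by -0.42 in AOS, -0.41 in HS, -0.49 in HS_AOS and -0.53 in HS_conFMT, all uncalled. Tkt changed by -0.07, -0.19, -0.22 and -0.28 in the same groups, also uncalled. In HS_AOSFMT against HS_conFMT the change of G6pdx was -0.00064 (limma adjusted p = 0.999). G6pdx was 63.2, 38.2 and 31.9 FPKM in control and 30.6, 27.3 and 29.7 in HS_AOSFMT, with control 1 far above the other two. Both calls were lost without control 1 or 2 or HS_AOSFMT 1 or 3, and that of G6pdx also without HS_AOSFMT 2 (up to 0.116 and 0.108). Txnip, an inhibitor of thioredoxin, rose by 0.66 against control (limma adjusted p = 0.0358), which held without control 3 and was lost when any other of the 6 libraries was left out (up to 0.149). Its change against control was also positive, though uncalled, in HS (0.56), HS_AOS (0.76), HS_conFMT (0.54) and AOS (0.07). In HS_AOSFMT against HS it was 0.095 (limma adjusted p = 0.770). None of the 13 further glutathione genes, 3 superoxide dismutase genes and 6 NADPH oxidase genes was called in these 3 comparisons.

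Apart from Maff against HS and control, every pathway call in these comparisons was lost under some alternative. Without HS 1, HS_AOS 1 and control 1, the calls of Selenot, Selenok, Selenos and Ugdh against HS and of Selenos, Selenok, Tkt, G6pdx, Gstm1 and Txnip against control were lost (limma adjusted p from 0.0761 to 0.182). Ugdh was also lost with median-of-ratios scaling (0.0765), scaling without haemoglobin genes (0.0809) and no filter on low values (0.0511). Fitted as the compared groups alone, all calls against HS_conFMT and all but Maff against control were lost (0.0681 to 0.204). Scaling to 1 fixed sum ended all calls against HS_conFMT, those of Tkt, G6pdx, Gstm1 and Txnip against control and that of Selenos against HS (0.0502 to 0.198). Scaling without haemoglobin genes ended those of Hmox1 (0.0553) and Selenot (0.107) against HS_conFMT and of Txnip against control (0.0817), and median-of-ratios scaling that of Selenok against control (0.0518). With no filter on low values Hmox1, Selenom, G6pdx, Gstm1 and Txnip were not called (0.0529 to 0.0691), and with the replicate block Hmox1 was not (0.0599).

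**Figure D5:**
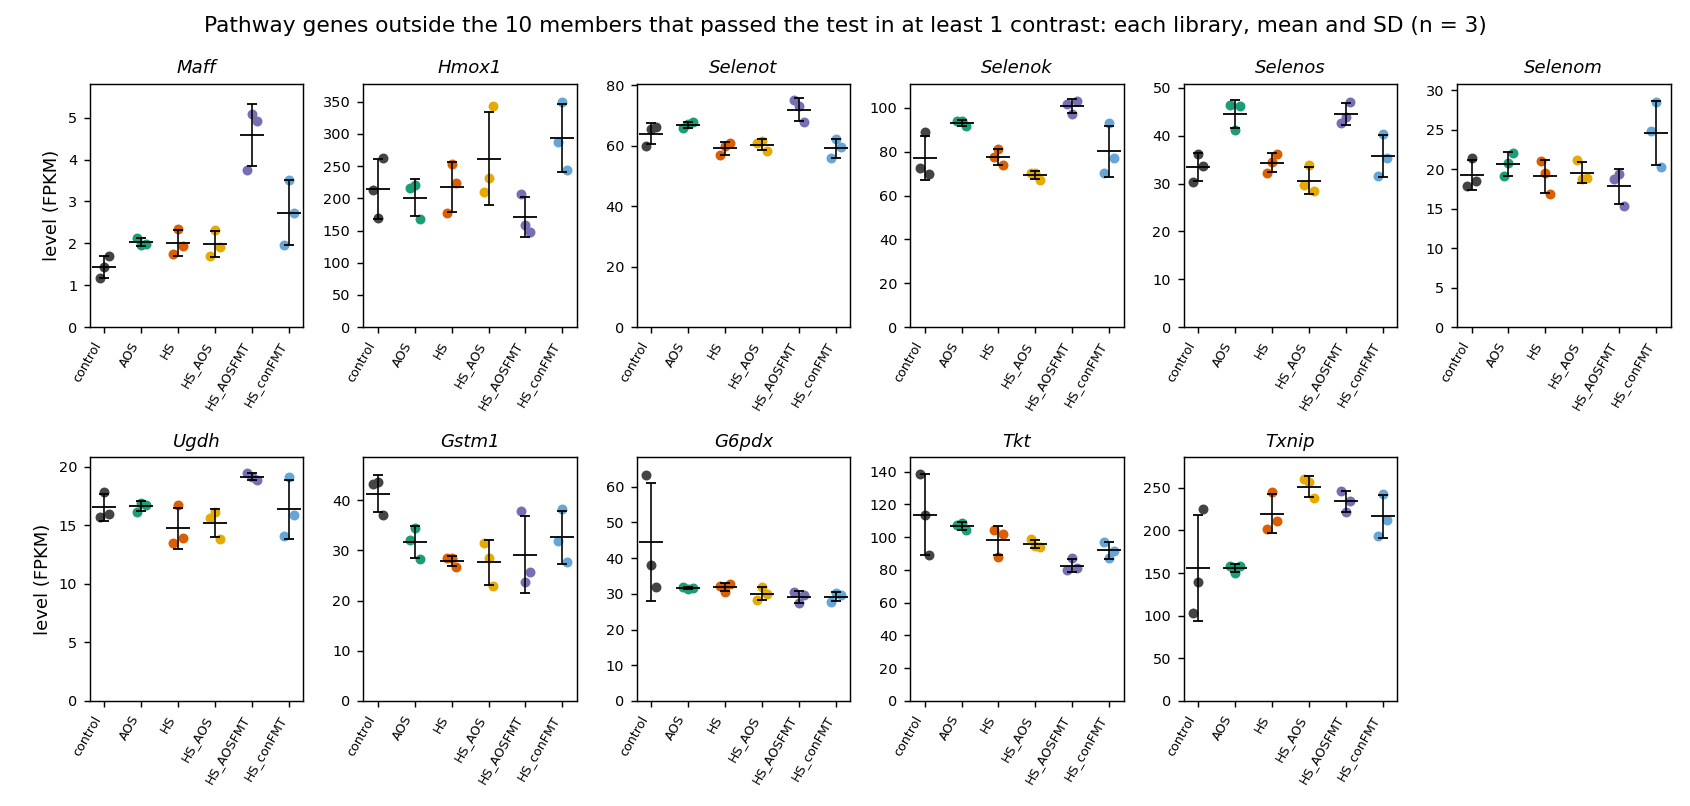
Level in FPKM (vertical axes) of pathway genes called in a comparison with HS_AOSFMT, in each of the 6 groups; points are the 3 libraries, horizontal bars the mean and whiskers the SD. Maff in HS_AOSFMT (3.75 to 5.10) lies above all libraries of the other groups (1.17 to 3.51), and control 1 (63.2) lies apart for G6pdx.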

How the data were processed

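Spleen RNA of 18 libraries was sequenced after freezing in liquid nitrogen, Trizol extraction and a column kit, per the labels' protocols. Reads were aligned with Bowtie 0.12.2 to mm10, per the submitters' processing notes; for the gene counter, annotation and filters the entry is "not given in the sources used here". Per the values, the deposited table holds FPKM, an inferred unit: sums differed between libraries (CV 6.14%) but length-weighted sums by 1.61%. These values keep no absolute depth, which limits the precision known for low genes.

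FPKM was taken as deposited, a pseudocount of 1 was added, and log2 values were tested with limma 3.58.1 (R 4.3.3; trend and robust variance) on all 18 libraries with group as the only term. Genes at 1 FPKM or more in 3 or more libraries were kept, and p-values were adjusted by Benjamini-Hochberg within a comparison over 12969 genes, at a threshold of 0.05. limma was tested on simulated data. Correlations used 100000 permutations (scipy 1.17.1), whose smallest possible p is 1e-05. Libraries were permuted regardless of group, so these p-values mix differences between groups with variation within them. Groups came from the labels. Alternatives were other pseudocounts, filters, scalings, samples and a replicate block. All members were described; of each pathway list the called genes were named, and for each member the 2 genes most like it, leaving out 1 whose symbol had become a date. The members and lists were chosen with earlier results of these data known. Locations are from GENCODE M21 (mm10) and promoters from RefSeq (GRCm38.p6).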

Additional observations from a re-analysis of the deposited data

How the results depend on the processing

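Of 1710 alternatives over 110 results of single members, 11 passed the threshold where the reported value had not, and 77 changed the sign of a change that was not called. Members called in HS_AOSFMT against HS went from 0 to 1 with median-of-ratios scaling and to 2 with only the compared groups, with 0 to 1 when single libraries were left out. Against control they went from 0 to 1 with the replicate block and to 1 with median-of-ratios scaling, with 0 to 1 over left-out libraries. In the F test they went from 0 to 1 without HS 1, HS_AOS 1 and control 1, with 0 to 1 over left-out libraries. The causes were not tested. In the other comparisons the count of members called was 0 under every alternative run.

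Counts over all genes moved more. They ran from 200 (without HS_AOSFMT 1) to 1540 (only the compared groups) in HS_AOSFMT against HS, 191 to 1200 against HS_conFMT, 203 (only the compared groups) to 3376 (without control 3) against control, and 80 to 1519 in the F test. Rescaling by median of ratios changed the split of higher and lower genes to 439 and 317 against HS_conFMT (from 624 and 135) and to 784 and 590 against control (from 1255 and 303). Whether the replicate numbers pair the samples is not known. Of 45 same-numbered pairs 15 had r over 0.1 (median 0.018, range -0.37 to 0.49), and 8 of 18 libraries correlated best with their own number. With 3 libraries per group these values cannot decide it. With the replicate block the count was 1453 in HS_AOSFMT against HS, 909 against HS_conFMT and 1941 against control, and among members Srxn1 against control had a limma adjusted p of 0.0452. The relation with the erythroid share, whose alternatives were chosen after seeing the data, passed 0.05 in 23 of 23 for Gpx1, Nqo1, Gclc, Gclm, Srxn1 and Cat and in 22 of 23 for Prdx1, where median-of-ratios scaling gave r = -0.39.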
